A study of Mus musculus with 45 samples.

Results

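The transcripts described here came from 46 imprinted genes of the mouse, chosen by gene name, with no measured value in the rule, out of 55401 gene rows in the deposited tables. They fall into 19 clusters, of which 10 contribute several genes and 9 a single gene. By the literature, 25 of the 46 are expressed from the paternal allele and 21 from the maternal allele, and 38 are protein-coding while 8 are noncoding RNAs. All 46 were found in each table, 45 by symbol and Nespas, the antisense RNA of the Gnas locus, by its Ensembl identifier, since the tables name it Gnasas1.

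Imprinted genes carry DNA methylation at a control region on the chromosome from only one parent, laid down in the germ line and kept through the wave of demethylation after fertilisation, so that the allele of one parent is transcribed. ZFP57 binds the methylated copy at the sequence TGCCGC and, with TRIM28 and DNMT1, holds the mark, while some clusters silence their genes in cis through a long antisense RNA such as Kcnq1ot1 or Airn. Many of these genes set fetal and placental growth, and embryonic stem cells in serum are known to lose or gain such marks from clone to clone. EHMT2 (G9a) and its partner EHMT1 (GLP) deposit H3K9me2, a repressive histone mark. The RNA counts used here do not separate the alleles.

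All cells were mouse embryonic stem cells (mESCs) grown in serum and LIF on mitomycin C-treated embryonic fibroblasts, called feeders. In the EHMT2-dTAG lines both copies of Ehmt2 carry a degron tag and an mCherry reporter at the end of the gene, so that the ligand dTAG-13 removes the protein while leaving its mRNA, and DMSO is the vehicle. Clones 17, 20 and K71 received DMSO or dTAG for 24 h or 7 d (groups DMSO 24 h, dTAG 24 h, DMSO 7 d and dTAG 7 d), or DMSO or dTAG for 15 d, and in the Recovery group dTAG for 7 d followed by 8 d without it. A line of the same kind with a MERVL-GFP reporter, which reports an endogenous retrovirus of the 2-cell embryo, was kept in DMSO or in dTAG over 72 h, then separated by flow into GFP-positive 2-cell-like cells (2CLC) and GFP-negative mESCs, with the sort itself setting that difference. In the last experiment WT J1 mESCs and Dppa4 KO mESCs, which lack a DNA-binding protein of the 2-cell programme, were kept for 48 h with DMSO or with UNC0638, which blocks the enzymes EHMT1 and EHMT2, with 3 clones of each genotype according to the labels. Each of the 15 groups had 3 libraries. The EHMT2-dTAG lines are labelled as crosses of BL6 and 129.

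Values are normalised read counts, that is, reads assigned to a gene divided by the library's size factor. For the time course, the washout and the sorted cells the tables hold the authors' mean of each group, so no spread can be given and no test was run there. A gene was called 2-fold different when the log2 ratio of (mean + 1) reached 1 in either direction, and only genes whose mean reached 10 in either group were compared. Only the Dppa4 experiment gave values per library, with 8399885 to 12710949 reads on genes. Dppa4 itself stood at 700.4, 868 and 920.5 in WT DMSO and at 0 in all 6 Dppa4 KO libraries. Ehmt2 mRNA stood at 616 in DMSO and 609 in dTAG at 24 h, which checks nothing because the degron acts on the protein. Since the RNA was bulk, fewer cells of a type and less RNA per cell cannot be told apart.

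In DMSO 24 h the 46 genes spanned a wide range of levels. Per kilobase of exon, which allows genes to be compared, the tetraspanin gene Cd81 had the highest value in DMSO 24 h, at 1378 normalised counts per kb, followed by the amino acid transporter gene Slc38a4 at 773 and the placental growth regulator Phlda2 at 476. Tssc4 and the retrogene Mcts2 came next at 372 and 306 per kb. The order differed between experiments, with Phlda2 highest in DMSO 15 d (1512) and in sorted mESC DMSO (501), and Mcts2 in 2CLC DMSO (595) and WT DMSO (1003). Because reads were aligned without splicing, genes of many short exons are counted low on this scale, and without a spread it cannot be said which neighbours in this order differ.

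The time course asked what the loss of EHMT2 does to transcription. At 24 h the noncoding RNA H19, its neighbour Igf2 and the miRNA host Mirg were lower in dTAG than in DMSO, and the cell cycle inhibitor gene Cdkn1c and the trophoblast factor gene Ascl2 were higher. Of these only Igf2 is expressed from the paternal allele, so both genes that were higher at 24 h are maternally expressed. At 7 d other genes stood apart. The 5 genes that were at least 2-fold higher, Igf2, Sfmbt2, Mest, Peg10 and Zdbf2, are all expressed from the paternal allele, and the 2 that were at least 2-fold lower, Slc22a18 and Ascl2, are maternally expressed genes of the Kcnq1ot1 cluster.

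In counts, 5 of the 42 imprinted genes compared were past 2-fold at 24 h (11.9%), against 5.7% of the 18451 genes compared, with 2 higher against 3.58% and 3 lower against 2.11% of all genes. At 7 d it was 7 of 41 (17.1%), against 9.95% of all genes, with 5 higher against 5.38% and 2 lower against 4.56%. By allele, the 23 paternally expressed genes at 7 d had a median log2 ratio of 0.59 with 20 above 0, and the 18 maternally expressed genes a median of 0.08 with 11 above 0. The median over all genes was 0.01. At 24 h the paternal and maternal medians were 0.21 and 0.00. At 15 d they were 0.17 and 0.10. The shares of imprinted genes past 2-fold stood above those of all genes at both times, and the difference between the alleles was not tested.

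The DMSO groups also differed between the time points, where 4 of 42 imprinted genes (9.52%) were past 2-fold between DMSO 7 d and DMSO 24 h, against 2.36% of all genes. H19, Igf2 and Plagl1 were lower and Ascl2 was higher in the later DMSO group. The feeder genes, a list of 12 fibroblast genes such as collagens, summed to 4131, 6058, 4062 and 7265 in DMSO 24 h, dTAG 24 h, DMSO 7 d and dTAG 7 d. The sum was higher with dTAG at both times. Of the 11 feeder genes compared at 24 h, 0 were at least 2-fold higher and 1 was lower (Dcn, at 20.5 and 1.13 in DMSO and dTAG). Of the 10 compared at 7 d, 2 were at least 2-fold higher and 0 lower. The 8 listed 2-cell genes were all at least 2-fold higher with dTAG at both times, summing to 237 and 5248 in DMSO 7 d and dTAG 7 d. Of 6 trophoblast genes, 4 were compared at 7 d and 2 were past 2-fold, both higher: Hand1 stood at 6.31 and 82.1 in DMSO 7 d and dTAG 7 d (log2 ratio 3.51) and Gata3 at 4.77 and 16.9 (log2 ratio 1.63). The trophoblast sum was 1135, 560.5, 722 and 843 in the order above. Of 6 primitive endoderm genes, 1 was higher with dTAG at 24 h and 0 at 7 d, with sums of 269.9, 472, 369.5 and 376. The part of these lists in the values of the imprinted genes was not tested.

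**Figure D1:**
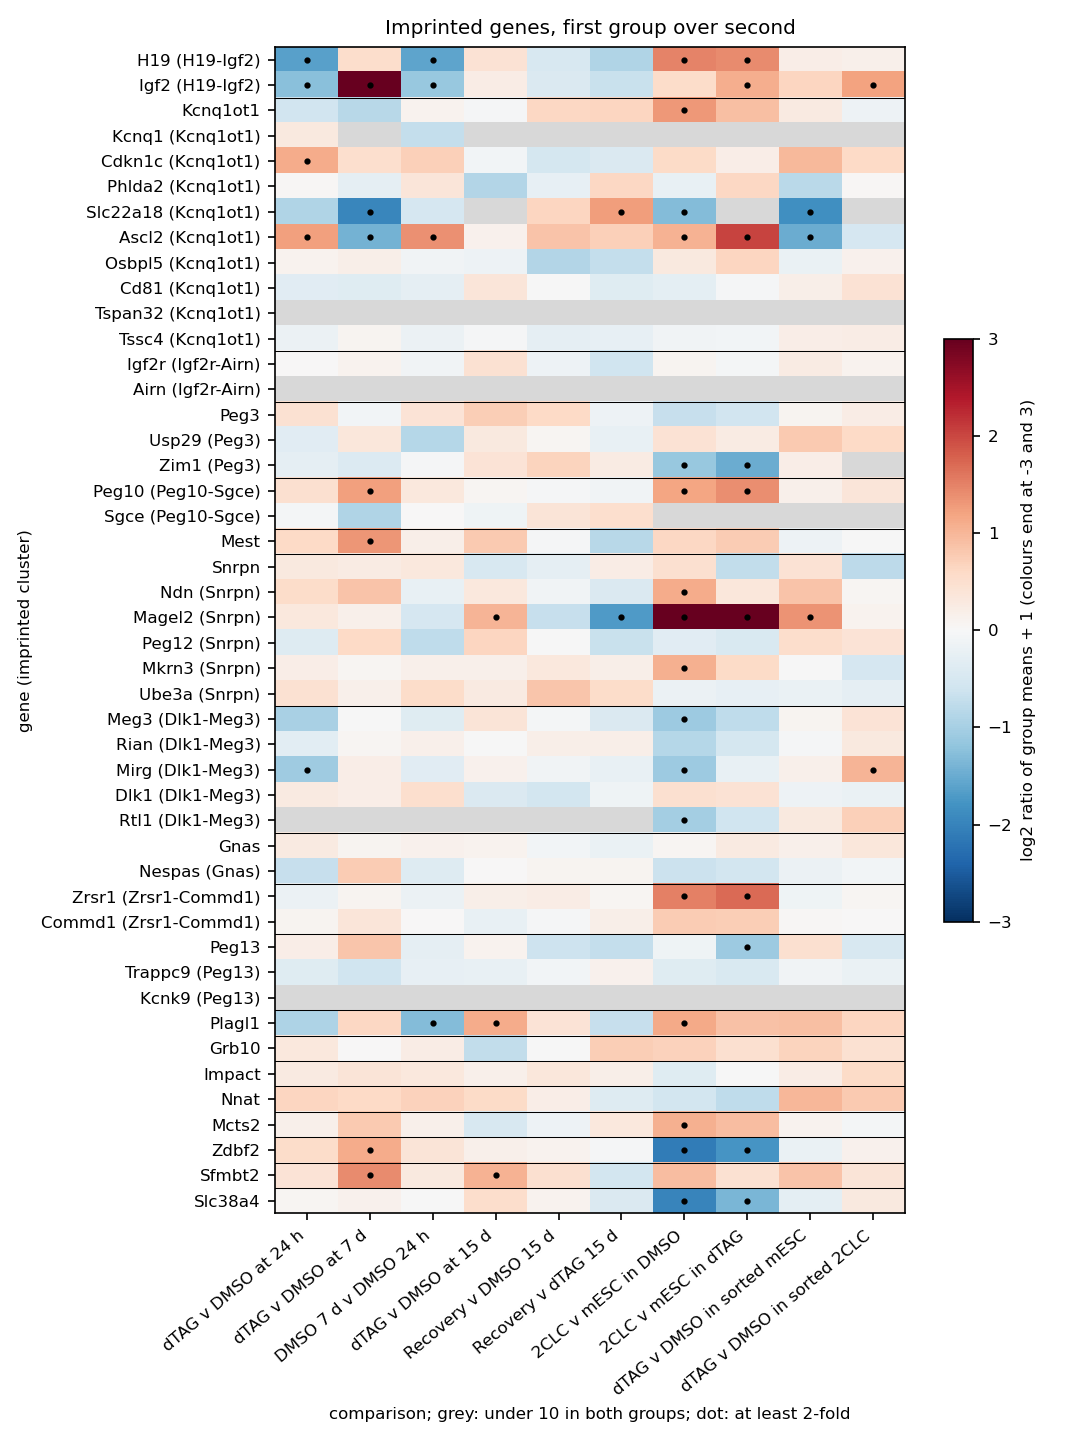
Log2 ratios of the authors' group means for the 46 imprinted genes (rows, by cluster) in 10 comparisons of groups (columns), with the colour scale ending at -3 and 3. Dots mark ratios of at least 2-fold, and grey cells are genes with a mean under 10 in both groups. The 2CLC columns carry the most dots, with 17 genes in DMSO and 10 in dTAG, and the Recovery against DMSO column carries none.

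In the washout experiment, which asked whether changes persist once EHMT2 returns, 3 of 40 imprinted genes (7.50%) were past 2-fold after 15 d of dTAG, against 6.33% of all genes past 2-fold and 5.48% higher. These were Magel2, Plagl1 and Sfmbt2, all paternally expressed and all higher. Sfmbt2 was thus past 2-fold at 7 d and at 15 d, whereas Igf2, Peg10, Mest and Zdbf2 had log2 ratios of 0.22, 0.05, 0.78 and 0.14 at 15 d. The DMSO groups of the separately normalised tables cannot be compared with each other. In Recovery against DMSO 15 d, 0 of 41 imprinted genes were past 2-fold, against 2.85% of all genes, and the ratios ran from -0.87 to 0.85. In Recovery against dTAG 15 d, 2 of 41 (4.88%) were past 2-fold, against 8.42% of all genes, with Slc22a18 higher and Magel2 lower. The feeder sums were 8323, 9657 and 3703 in DMSO 15 d, dTAG 15 d and Recovery, and 7 of 10 feeder genes were at least 2-fold lower in Recovery than in DMSO. The 2-cell genes summed to 366, 8441 and 592 in the same order. The primitive endoderm genes summed to 375, 645 and 339, and the trophoblast genes to 882, 775 and 938. The part of these lists in the values of the imprinted genes was not tested.

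The sorted cells showed the most differences. In DMSO, 17 of 41 imprinted genes (41.5%) were past 2-fold between 2CLC and mESC, against 26.4% of all genes. The 10 higher in 2CLC were H19, Kcnq1ot1, Ascl2, Peg10, Ndn, Magel2, Mkrn3, Zrsr1, Plagl1 and Mcts2. The 7 lower were Slc22a18, Zim1, Meg3, Mirg, Rtl1, Zdbf2 and Slc38a4. Of all genes, 17.0% were higher and 9.42% lower. With a pseudocount of 5, or with a mean of at least 50, 3 were lower instead of 7, and Slc22a18, Zim1, Mirg and Rtl1, all with means under 50, were no longer among them. In dTAG, 10 of 40 (25.00%) were past 2-fold, against 23.6%, a share close to the background, with H19, Igf2, Ascl2, Peg10, Magel2 and Zrsr1 higher and Zim1, Peg13, Zdbf2 and Slc38a4 lower in 2CLC. The depletion of EHMT2 within each sorted population left few of them past 2-fold, 3 of 41 (7.32%) in mESC, against 8.51% of all genes, and 2 of 39 (5.13%) in 2CLC, against 9.03%. In mESC these were Slc22a18 and Ascl2 (lower with dTAG) and Magel2 (higher), all with means under 50, and in 2CLC Igf2 and Mirg (higher). Beside these, 6 of 10 feeder genes in mESC and 8 of 10 in 2CLC were at least 2-fold higher with dTAG. Feeders carry no MERVL-GFP reporter, and whether the gate for GFP-positive cells left them out was not tested. All 8 of the 2-cell genes were at least 2-fold higher in 2CLC under both treatments, and their sum was 635 and 111131 in mESC DMSO and 2CLC DMSO. The feeder sum in mESC DMSO, 2CLC DMSO, mESC dTAG and 2CLC dTAG was 953, 1686, 1719 and 3597, and in the same order that of 7 pluripotency genes was 48941, 27241, 42145 and 27867. Of 6 primitive endoderm genes, 4 were at least 2-fold higher in 2CLC in DMSO and 5 in dTAG, among them Sox17 (log2 ratios 3.07 and 2.25) and Gata6 (1.06 and 1.47). The trophoblast list held 1 gene higher in 2CLC under each treatment, Gata3 (4.08 and 2.68), and 2 lower in DMSO and 1 in dTAG. Their part in the values of the imprinted genes was not tested.

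**Figure D2:**
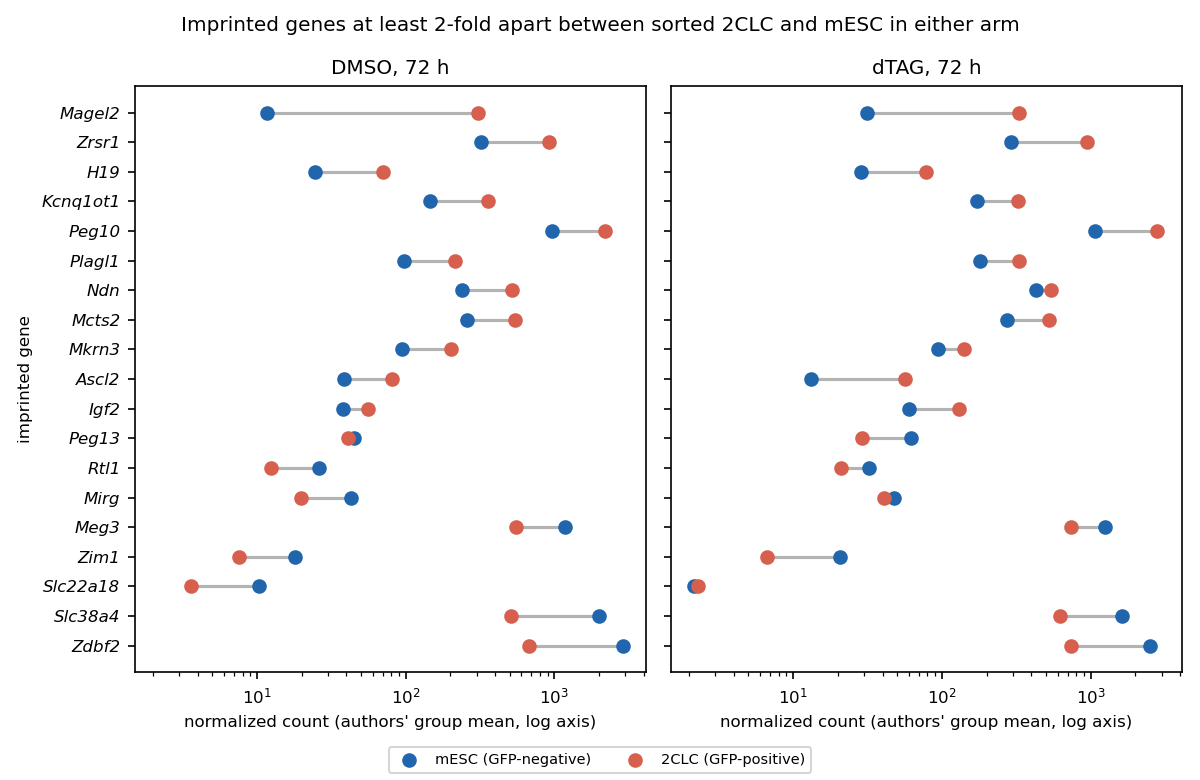
Authors' mean normalised counts (log axis) in GFP-negative mESC and GFP-positive 2CLC, with DMSO and dTAG in separate panels, for the 19 imprinted genes past 2-fold between 2CLC and mESC in either treatment. Lines join the pair of means of each gene. Magel2 has the longest line in both treatments. In the other direction the longest lines are those of Zdbf2 and Slc38a4 in DMSO, and of Zdbf2 and Zim1 in dTAG.

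In the H19-Igf2 cluster, the noncoding RNA H19 (GRCm38/mm10 chromosome 7, 142575529 to 142578143, minus strand) is made from the maternal allele and Igf2, the fetal insulin-like growth factor (chromosome 7, 142650766 to 142666816, minus strand), from the paternal one, and both compete for the same enhancers. H19 stood at 507, 163, 169 and 244 in DMSO 24 h, dTAG 24 h, DMSO 7 d and dTAG 7 d, the order used for all time-course values. It was 3.10-fold lower with dTAG at 24 h (log2 ratio -1.63). Igf2 stood at 249, 104, 113 and 1059.9, so that it was 2.38-fold lower at 24 h (log2 ratio -1.25) and 9.30-fold higher at 7 d (log2 ratio 3.22). The direction of the Igf2 ratio therefore turned between the time points, and at 7 d it was the highest of the 41 ratios. The DMSO means also differed past 2-fold between 24 h and 7 d, at 249 and 113 for Igf2 and 507 and 169 for H19. For both genes the dTAG 24 h mean lay close to the DMSO 7 d mean. In the washout, H19 stood at 685, 922 and 494 and Igf2 at 327, 382 and 241 in DMSO 15 d, dTAG 15 d and Recovery, and neither reached 2-fold. In sorted mESC DMSO, 2CLC DMSO, mESC dTAG and 2CLC dTAG, the order used for all sorted values, H19 stood at 24.7, 70.7, 28.4 and 78.3. Igf2 stood at 37.9, 55.6, 60.01 and 129.6. Both had higher means in 2CLC than in mESC under each treatment, with H19 past 2-fold in both and Igf2 in dTAG only. The Igf2 model shares 64.5% of its exonic bases with other genes, 62.8% with Gm49394 on the same strand, so its reads are not assigned with certainty. Igf2 is also made by fibroblasts.

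In the Kcnq1ot1 cluster on chromosome 7, the paternally expressed antisense RNA Kcnq1ot1 (chromosome 7, 143203458 to 143296549, minus strand) silences the neighbouring genes in cis. Kcnq1ot1 stood at 114, 75.6, 122 and 68.7 in the time course, at 37.3, 36.6 and 57.8 in the washout and at 145, 359.9, 174 and 323 in the sorted cells. It was 2.47-fold higher in 2CLC than in mESC in DMSO, while with dTAG its log2 ratio was -0.58 at 24 h and -0.82 at 7 d. The Kcnq1ot1 model is 1 block of 93092 bases, at 1.56 and 3.87 counts per kb in mESC DMSO and 2CLC DMSO. Reads that fit several places were placed at random, and whether such reads entered its counts was not tested. Cdkn1c, which encodes the CDK inhibitor p57 (chromosome 7, 143458339 to 143461050, minus strand), stood at 186, 407, 307 and 436 in the time course, at 1724, 1633 and 1200.1 in the washout and at 123, 185, 244 and 279 in the sorted cells. It was 2.18-fold higher with dTAG at 24 h (log2 ratio 1.12), and 30.7% of its exonic bases overlap Gm44732 on the opposite strand. Ascl2 (chromosome 7, 142966829 to 142969264, minus strand) stood at 29.1, 69.9, 76.1 and 28.03 in the time course, at 16.5, 18.01 and 30.3 in the washout and at 38.6, 80.6, 13.1 and 56.3 in the sorted cells. With dTAG it was 2.36-fold higher at 24 h and 2.66-fold lower at 7 d, and in 2CLC it was 2.06-fold higher than in mESC in DMSO and 4.05-fold higher in dTAG. Its DMSO means also differed past 2-fold, at 29.1 in DMSO 24 h and 76.1 in DMSO 7 d. Slc22a18, a solute carrier gene (chromosome 7, 143473736 to 143499334, plus strand), stood at 42.3, 22.2, 29.7 and 6.96 in the time course, at 8.35, 5.15 and 13.7 in the washout and at 10.3, 3.61, 2.17 and 2.30 in the sorted cells, so each of its 2-fold differences rests on means under 30. The maternally expressed genes of this cluster did not share a direction, since Cdkn1c and Ascl2 were higher at 24 h, and Slc22a18 and Ascl2 were lower at 7 d while Cdkn1c had a log2 ratio of 0.51.

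**Figure D3:**
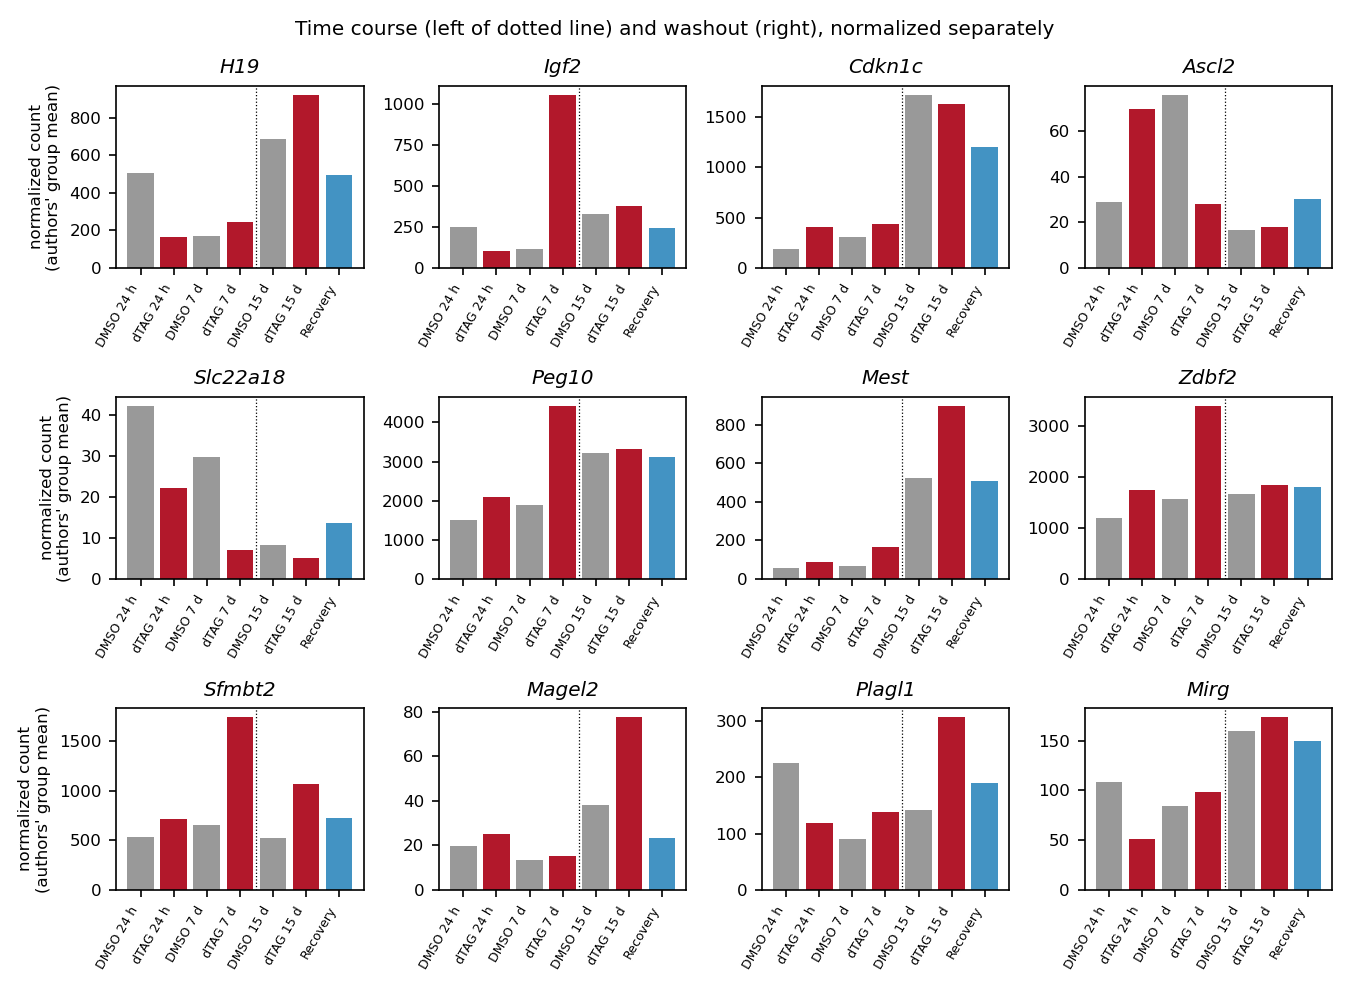
Bars give the authors' mean normalised counts (axes start at 0) in DMSO 24 h, dTAG 24 h, DMSO 7 d and dTAG 7 d for 12 imprinted genes. Group means carry no spread. Among the time-course bars, Igf2, Peg10, Mest, Zdbf2 and Sfmbt2 are highest in dTAG 7 d, and H19 in DMSO 24 h.

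The paternally expressed genes that were higher at 7 d lie in separate clusters. Peg10, a retrotransposon-derived gene needed in the placenta (chromosome 6, 4747306 to 4760517, plus strand), stood at 1506, 2099, 1887 and 4429.6 in the time course and was 2.35-fold higher with dTAG at 7 d (log2 ratio 1.23). Mest, a hydrolase gene of mesoderm (chromosome 6, 30723547 to 30748465, plus strand), stood at 58.7, 89.9, 66.4 and 168 (log2 ratio 1.32 at 7 d), and 23.1% of its exonic bases overlap Copg2 on the opposite strand. Zdbf2, a zinc finger gene whose germline mark acts in the early embryo (chromosome 1, 63273265 to 63314576, plus strand), stood at 1195, 1756, 1566 and 3405 (log2 ratio 1.12 at 7 d). Sfmbt2, a Polycomb gene of extraembryonic tissue that hosts a large miRNA cluster (chromosome 2, 10370510 to 10595253, plus strand), stood at 536, 716, 655 and 1751 (log2 ratio 1.42 at 7 d). For each of these 4 genes the dTAG 7 d mean was the highest of the 4 groups. After 15 d, in the order DMSO, dTAG and Recovery, Peg10 stood at 3219.7, 3334 and 3117, Mest at 522, 899 and 508, Zdbf2 at 1671, 1846 and 1810.1 and Sfmbt2 at 520.2, 1067 and 728. Sfmbt2 was 2.05-fold higher with dTAG and had a log2 ratio of 0.48 in Recovery against DMSO. In the sorted cells Peg10 stood at 962, 2185, 1076 and 2817, and was 2.27-fold and 2.62-fold higher in 2CLC. Zdbf2 went the other way, at 2875, 671, 2508 and 738, and was 4.28-fold lower in 2CLC in DMSO and 3.39-fold lower in dTAG. Mest stood at 21.8, 34.04, 19.6 and 33.7 and Sfmbt2 at 50.7, 97.4, 93.3 and 128, with neither past 2-fold.

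Since ZFP57 reads TGCCGC, the stretches before 3 of these starts are shown, from a gene higher at 7 d with the motif (Mest), a gene higher at 7 d without it (Sfmbt2), and the noncoding RNA Meg3, which was lower in 2CLC. Each run is the 250 bases before 1 of the gene's RefSeq starts (Mest has 3 windows, Sfmbt2 and Meg3 2 each), on GRCm38.p6, 5′ to 3′ on the gene's plus strand. The start with the most matches before it was taken, then the most CpG sites, and Meg3 was included because it holds a match. The Mest window from 30733256 and the Meg3 window from 109545148 hold 0 matches. Igf2 and Zdbf2 (3 matches), also higher at 7 d, were left out because their stretches overlap an exon, and Peg10 had no window. Capitals mark TGCCGC or its reverse complement GCGGCA.
Mest: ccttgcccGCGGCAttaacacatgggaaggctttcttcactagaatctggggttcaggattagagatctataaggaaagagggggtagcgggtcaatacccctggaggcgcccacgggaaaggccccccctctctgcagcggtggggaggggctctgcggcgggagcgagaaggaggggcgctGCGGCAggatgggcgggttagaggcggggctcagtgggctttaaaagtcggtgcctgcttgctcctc
Sfmbt2: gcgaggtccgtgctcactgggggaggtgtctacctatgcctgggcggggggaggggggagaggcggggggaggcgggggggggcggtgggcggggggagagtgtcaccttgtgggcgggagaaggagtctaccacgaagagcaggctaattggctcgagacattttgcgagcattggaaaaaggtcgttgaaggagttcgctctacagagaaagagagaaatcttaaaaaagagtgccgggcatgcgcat
Meg3: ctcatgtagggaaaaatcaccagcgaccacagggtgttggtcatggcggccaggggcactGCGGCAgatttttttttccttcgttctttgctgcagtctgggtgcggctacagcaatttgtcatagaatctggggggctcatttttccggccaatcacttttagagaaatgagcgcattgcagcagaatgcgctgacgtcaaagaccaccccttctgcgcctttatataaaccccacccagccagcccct
They lie at chr6:30737800-30738049, chr2:10372186-10372435 and chr12:109540746-109540995. The Mest stretch holds 2 matches, the Meg3 stretch 1 and the Sfmbt2 stretch 0, with 14, 10 and 15 CpG sites. Windows of 300 bases, 250 before and 50 after a start, were found for 35 of the 46 genes, 55 windows in all, and 13 of them (23.6%) hold the motif on either strand, against 11.6% of 32851 mouse windows. A pair of overlapping Mest windows counts among the 13. The motif holds a CpG, and the windows of the imprinted genes had a median of 14 CpG sites against 7 over all windows. A match is a run of letters and not a bound site, and control regions away from promoters were not searched.

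In the Snrpn cluster on chromosome 7, Magel2, Ndn, Mkrn3 and Peg12 are single-exon genes expressed from the paternal allele. Magel2, a MAGE family gene (chromosome 7, 62377010 to 62381640, plus strand), gave the largest ratio of all 10 comparisons of means, with 11.8, 304, 31.6 and 329.8 in the sorted cells, so that it was 23.9-fold higher in 2CLC in DMSO (log2 ratio 4.58) and 10.1-fold higher in dTAG (log2 ratio 3.34). Within sorted mESC it was 2.55-fold higher with dTAG. In the mixed cultures it was low, at 19.7, 24.9, 13.7 and 15.3 in the time course and 38.2, 77.9 and 23.1 in the washout, where it was 2.01-fold higher with dTAG and 3.27-fold lower in Recovery than in dTAG. Ndn, the gene of the growth suppressor necdin (chromosome 7, 62346569 to 62350262, plus strand), stood at 238, 517, 429 and 543 in the sorted cells, and the makorin gene Mkrn3 (chromosome 7, 62417593 to 62420139, minus strand) at 95.1, 201, 94.7 and 142. Both were past 2-fold in DMSO (2.17-fold and 2.11-fold higher in 2CLC) and had log2 ratios of 0.34 and 0.57 in dTAG. In the time course Ndn stood at 133, 194, 114 and 208, and in the washout at 544, 682 and 505. Mkrn3 stood at 54.6, 62.3, 60.4 and 63.1 in the time course and at 66.96, 74.97 and 84.1 in the washout, so neither of them had a 2-fold difference in the cultures. Snrpn, the Sm protein gene whose promoter holds the control region (chromosome 7, 59982495 to 60140219, minus strand), did not follow them, at 21.4, 30.1, 28.97 and 17.00 in the sorted cells, 109, 134, 135 and 160.0 in the time course and 458, 328 and 380.4 in the washout, with no ratio past 2-fold. It shares 27.3% of its exonic bases with Gm38393. The maternally expressed ubiquitin ligase gene Ube3a had log2 ratios of -0.19 and -0.26 between 2CLC and mESC.

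In the Dlk1-Meg3 cluster on chromosome 12, the maternal allele gives a chain of noncoding RNAs, Meg3, Rian and Mirg, and the paternal allele Dlk1 and Rtl1. Meg3 (chromosome 12, 109541001 to 109571726, plus strand), whose silencing marks stem cell lines of poor developmental quality, stood at 2723, 1377, 2114 and 2083 in the time course, 2606, 3385 and 2515 in the washout and 1181, 553, 1249 and 733 in the sorted cells. It was 2.13-fold lower in 2CLC than in mESC in DMSO and had a log2 ratio of -0.77 in dTAG. Mirg (chromosome 12, 109729764 to 109749460, plus strand) stood at 108, 50.7, 84.6 and 98.00 in the time course, at 159.6, 174 and 149 in the washout and at 42.9, 19.6, 47.8 and 40.9 in the sorted cells, and was 2.11-fold lower with dTAG at 24 h and 2.13-fold lower in 2CLC in DMSO. Rian, between them, had log2 ratios of -0.33 at 24 h and -0.85 in 2CLC in DMSO, so all 3 RNAs had ratios below 0 in these comparisons. Rtl1 (chromosome 12, 109589193 to 109600330, minus strand), at 26.3, 12.4, 32.6 and 21.1, was 2.04-fold lower in 2CLC in DMSO, and it stood at 0, 1.27, 1.05 and 0.402 in the time course and at 7.96, 6.88 and 4.91 in the washout, under the mean of 10 needed there. Dlk1, the gene of a Notch ligand-like protein (chromosome 12, 109452823 to 109463336, plus strand), stood at 17.3, 21.1, 24.7 and 28.4 in the time course, at 139.8, 104 and 95.4 in the washout and at 36.1, 50.8, 32.2 and 43.98 in the sorted cells and was past 2-fold in none. None of the 5 genes was past 2-fold between dTAG and DMSO at 7 d or 15 d.

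Among the other clusters, the zinc finger factor gene Plagl1 (chromosome 10, 13060504 to 13131694, plus strand) stood at 226, 118, 90.6 and 139 in the time course, 142, 307 and 189.9 in the washout and 97.1, 214, 181 and 332 in the sorted cells. It was 2.16-fold higher with dTAG at 15 d and 2.19-fold higher in 2CLC in DMSO, and its ratios with dTAG in sorted mESC and 2CLC were 0.89 and 0.63. Slc38a4 (chromosome 15, 96994820 to 97055956, minus strand), which is imprinted through a histone mark rather than through inherited DNA methylation, stood at 3295, 3436, 3268 and 3552 in the time course, at 2432, 3519 and 2614 in the washout and at 1994, 507, 1632 and 626 in the sorted cells. In 2CLC it was 3.93-fold lower in DMSO and 2.60-fold lower in dTAG, while dTAG gave log2 ratios of 0.06, 0.12 and 0.53 at 24 h, 7 d and 15 d. Sfmbt2, imprinted in the same way, had a ratio of 0.93 in 2CLC in DMSO.

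The retrogenes Zrsr1 (chromosome 11, 22972005 to 22976496, plus strand) and Mcts2 (chromosome 2, 152687035 to 152687946, plus strand) lie inside introns of Commd1 and H13 and are near copies of genes elsewhere, so that reads placed at random between copies make their counts uncertain. Zrsr1, a splicing factor gene, stood at 409, 360.4, 362 and 383 in the time course, at 351, 395 and 410.4 in the washout and at 321, 913, 292 and 944 in the sorted cells, and was 2.84-fold and 3.22-fold higher in 2CLC. Its host Commd1 had log2 ratios of 0.77 and 0.75, and the genes share 412 exonic bases on opposite strands. Mcts2 stood at 279, 311, 308 and 528 in the time course, at 912, 657 and 819.8 in the washout and at 257, 543, 275 and 524 in the sorted cells, and was 2.11-fold higher in 2CLC in DMSO. Zim1 and Peg13 were lower in 2CLC. Zim1 (chromosome 7, 6671269 to 6696450, minus strand), a maternally expressed zinc finger gene of the Peg3 cluster, stood at 74.1, 61.5, 72.03 and 53.7 in the time course, at 29.6, 39.9 and 47.8 in the washout and at 17.9, 7.55, 20.8 and 6.73 in the sorted cells. The noncoding RNA Peg13 (chromosome 15, 72805600 to 72810324, minus strand) stood at 51.1, 59.2, 42.6 and 76.5 in the time course, at 96.6, 103 and 62.9 in the washout and at 44.7, 40.96, 62.5 and 28.9 in the sorted cells. Zim1 was 2.21-fold lower in DMSO and 2.82-fold lower in dTAG, on means under 25, and Peg13 was 2.12-fold lower in dTAG only.

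Some genes that define a control region or are often used to follow imprinting stayed within 2-fold in all 10 comparisons of means. Peg3 (chromosome 7, 6703892 to 6730431, minus strand), a large zinc finger gene, stood at 1559, 2148, 2068 and 1959.7 in the time course, at 2498, 4196 and 3774 in the washout and at 584, 361, 621 and 419 in the sorted cells. Grb10 (chromosome 11, 11930508 to 12038683, minus strand), an adaptor that restrains growth factor receptors, stood at 1798, 2230.3, 2113 and 2114 in the time course, at 6438, 3839.6 and 6365 in the washout and at 192, 311, 306 and 430.3 in the sorted cells. Nnat (chromosome 2, 157560078 to 157562522, plus strand), which encodes neuronatin, stood at 49.9, 78.4, 81.4 and 123 in the time course, at 324, 487 and 375 in the washout and at 61.2, 41.4, 123 and 71.7 in the sorted cells. For these 3 genes the dTAG 7 d ratios were -0.08, 0.00 and 0.59. Nespas (chromosome 2, 174281237 to 174295436, minus strand) stood at 17.4, 10.4, 13.2 and 22.98 in the time course, at 32.1, 32.4 and 34.2 in the washout and at 22.1, 13.7, 19.5 and 13.02 in the sorted cells, and shares 31.4% of its exonic bases with Gnas. Airn (chromosome 17, 12741311 to 12860136, plus strand), the antisense RNA of Igf2r, never reached a mean of 10, at 4.08, 1.63, 2.20 and 5.30 in the time course, at 4.78, 4.68 and 1.72 in the washout and at 1.63, 2.75, 0.858 and 4.74 in the sorted cells, and was compared nowhere. Its target Igf2r, the receptor that clears IGF2, had means of 534 to 1435.

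Across the 10 comparisons of means, 22 of the 46 genes were past 2-fold at least once and 24 never, of which Airn, Tspan32 and Kcnk9 had too few counts to be compared in any. The 17 genes not described one by one ranged from Kcnk9, at a mean of 0 to 0.574, to Rian, whose highest mean was 5651. Tspan32 had means of 3.99 to 9.88 in those experiments and 22.9 to 79.1 per library in the Dppa4 experiment, which was normalised separately. Kcnq1, Osbpl5 and Sgce also had means under 100 throughout, and Phlda2, Cd81, Tssc4, Igf2r, Usp29, Peg12, Ube3a, Rian, Gnas, Commd1, Trappc9 and Impact were compared in all 10 and past 2-fold in none.

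The proteins that set, keep or erase imprints were read from a list of 15 genes. Most stayed within 2-fold: 1 of 15 was higher at 24 h of dTAG, and 0 of 15 at 7 d and 15 d. The gene at 24 h was Dnmt3a, a de novo DNA methyltransferase, at 853 and 1733 in DMSO and dTAG (log2 ratio 1.02), and it stood at 1394 and 2172 at 7 d. Dnmt3b, another such gene, stood at 562, 1095, 1203 and 1927 in the time course, under 2-fold with dTAG at both times. Between the DMSO groups it was the 1 gene of 15 past 2-fold, higher in DMSO 7 d than in DMSO 24 h. Zfp57 stood at 3442, 2094, 3206 and 2963 in the time course and Trim28 at 12796, 12312, 11602 and 14533. The maintenance methyltransferase gene Dnmt1 stood at 2313, 2284, 2438 and 2109 and its recruiter Uhrf1 at 4059.5, 4911, 4637 and 4885. In 2CLC against mESC in DMSO, Dppa3 (Stella), which guards maternal imprints in the zygote, was higher (log2 ratio 3.54) and the demethylase genes Tet1 and Tet2 were lower (-1.41 and -1.36). The same 3 were past 2-fold in dTAG (2.08, -1.06 and -1.35), where Dnmt3l was also higher (1.19). Zfp57 stood at 4705, 2479.5, 4188 and 2968 in the sorted cells.

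The Dppa4 experiment asked whether the response to EHMT1/2 inhibition needs Dppa4, and only its values, given per library, were tested here. Of the 46 genes, 42 passed the filter on low counts in it, and Kcnq1, Airn, Sgce and Kcnk9 did not. Over all genes, 765 and 567 were called between genotypes in DMSO and UNC0638, and 0 and 80 between treatments in WT and KO. Among the imprinted genes, Igf2 and Dlk1 were lower in Dppa4 KO than in WT under DMSO, and Igf2, Peg10, Dlk1 and Grb10 under UNC0638, whereas UNC0638 moved no imprinted gene past the threshold in either genotype. A gene was called when limma's Benjamini-Hochberg adjusted p over 17258 genes was under 0.05 and the difference at least 2-fold on the log2(normalised count + 1) scale.

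Igf2 stood at 61.7, 157 and 245 in WT DMSO, 65.2, 310.2 and 303 in WT UNC0638, 30.3, 23.4 and 18.6 in KO DMSO and 25.8, 16.1 and 15.7 in KO UNC0638. No KO library reached the lowest WT library. The difference was -2.45 (SE 0.56, limma adjusted p = 0.0164) in DMSO and -3.23 (SE 0.56, limma adjusted p = 0.0043) in UNC0638. Dlk1 stood at 62.8, 81.2 and 139 in WT DMSO, at 31.7, 81.3 and 75.8 in WT UNC0638, at 20.5, 15.3 and 15.1 in KO DMSO and at 15.6, 10.8 and 28.8 in KO UNC0638, again with no overlap. It fell by 2.34 on the log2 scale in DMSO (SE 0.47, limma adjusted p = 0.0082) and by 1.72 in UNC0638 (SE 0.47, limma adjusted p = 0.0463).

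Peg10 stood at 2617, 3975 and 3384 in WT DMSO, at 2439.8, 4561 and 3822 in WT UNC0638, at 1566, 1811 and 2249.5 in KO DMSO and at 1522, 1772 and 1049 in KO UNC0638. The KO libraries were lower without overlap under each treatment, and the difference was -1.30 in UNC0638 (SE 0.24, limma adjusted p = 0.0071) and -0.82 in DMSO (SE 0.24, limma adjusted p = 0.0514). Grb10 stood at 4239.8, 3129 and 4329.5 in WT DMSO, at 3106, 2901 and 3887 in WT UNC0638, at 1641, 2283 and 2527 in KO DMSO and at 1339, 1681 and 1644 in KO UNC0638, and its difference was -1.08 in UNC0638 (SE 0.19, limma adjusted p = 0.0048). In DMSO, Grb10, the snoRNA host Rian and Ndn had limma adjusted p of 0.0144, 0.0155 and 0.0155 but differences of -0.87, -0.90 and -0.86, under 2-fold. The calls thus numbered 2 of 42 in DMSO (4.76%), against 4.43% of all genes called and 3.1% called lower. In UNC0638 they numbered 4 of 42 (9.52%), against 3.29% called and 2.31% called lower. With 2 calls among 42, the share in DMSO was close to the background. The DMSO count was 0 without WT DMSO replicate 3, 4 without WT DMSO replicate 1 and 4 without KO DMSO replicate 3, and the UNC0638 count was 2 without WT UNC0638 replicate 2 or replicate 3. The Dlk1 call in UNC0638 was made in 11 of 22 settings tried.

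Lists of other cell types differed with the genotype too. The sum of the feeder genes ran from 6795 to 8625 in WT DMSO and 5872 to 7990.4 in WT UNC0638. It ran from 3303 to 4401 in KO DMSO and 3857 to 4623 in KO UNC0638, so the genotypes did not overlap, and 1 of the 10 feeder genes tested was called lower in KO DMSO and 0 in KO UNC0638. The part of the feeders in the genotype differences of the imprinted genes was not tested. Of the 4 trophoblast genes tested, Hand1 was lower in KO, with a log2 difference of -5.40 in DMSO (limma adjusted p = 0.0045) and -5.16 in UNC0638 (limma adjusted p = 0.0076), and Cdx2 of -3.41 in UNC0638 (limma adjusted p = 0.028). The pluripotency sum ran from 43277 to 58488 in WT DMSO and from 61443 to 63298 in KO DMSO, without overlap. It did not overlap in UNC0638 either, and Klf4 rose in KO DMSO by 1.01 on the log2 scale (limma adjusted p = 0.0025). The 8 genes of the 2-cell list were at 0 in all 6 KO libraries, and none of the 5 primitive endoderm genes tested was called between genotypes. The part of these lists was not tested either.

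**Figure D4:**
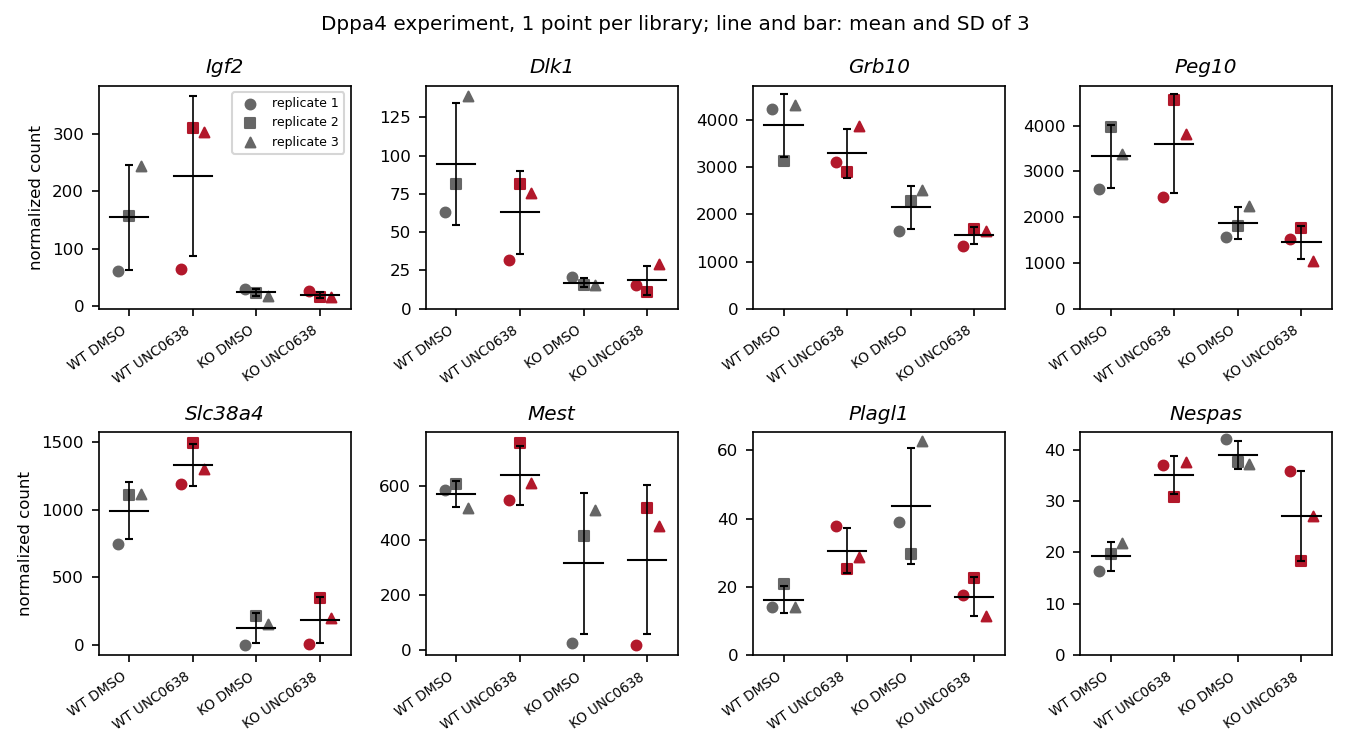
Normalised counts of 8 imprinted genes in the 12 libraries of the Dppa4 experiment, with 1 point per library and the mean and SD of each group of 3. Igf2, Dlk1, Grb10, Peg10 and Slc38a4 lie lower in all 6 KO libraries than in all 6 WT libraries. Mest does so only by a near tie, with its highest KO library at 518.185 and its lowest WT library at 518.355. KO replicate 1 lies far below the others for Mest and Slc38a4, while Plagl1 and Nespas shift in opposite directions with UNC0638 in WT and KO.

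The libraries labelled KO replicate 1 stood apart at 2 imprinted genes. Slc38a4 stood at 748, 1109 and 1117 in WT DMSO, at 1192, 1495 and 1302 in WT UNC0638, at 0, 217 and 152 in KO DMSO and at 10.1, 349 and 201 in KO UNC0638. Replicate 1 was the lowest in both KO groups. The difference was -4.92 in DMSO (SE 1.47, limma adjusted p = 0.054), which missed the threshold, and -3.84 in UNC0638 (SE 1.47, limma adjusted p = 0.149). Without KO replicate 1 in both treatments it was called, at -2.42 in DMSO (limma adjusted p = 0.000365) and -2.32 in UNC0638 (limma adjusted p = 0.000497), and the counts of called genes were 3 and 3. With the replicate number as a block, limma also called it (adjusted p = 0.00888 and 0.0392), together with Sfmbt2 in UNC0638 (-1.09, adjusted p = 0.0378). Mest showed the same form, at 583, 608 and 518 in WT DMSO, at 547, 758 and 610.0 in WT UNC0638, at 24.5, 415 and 509.6 in KO DMSO and at 17.5, 518 and 451 in KO UNC0638. Its limma adjusted p was 0.346 and 0.311 in DMSO and UNC0638. Nnat differed in this way among the WT libraries, where replicate 2 stood at 203 and 149 and the other 4 WT libraries at 20.8 to 41.9. In the library KO UNC0638 replicate 3, Peg3, Zdbf2, Meg3 and Sfmbt2 stood at 155, 149, 368 and 141, against 790.5, 1147, 595 and 332 in KO DMSO replicate 3. Taking both treatments, 6 of 42 genes were lower in all 6 KO than in all 6 WT libraries (Igf2, Dlk1, Grb10, Peg10, Mest and Slc38a4), against 3.51% of all genes, and 1 was higher (Mkrn3), against 2.33%. Mest is among the 6 only by a near tie, with its highest KO library at 518.185 and its lowest WT library at 518.355. With 3 clones of each genotype according to the labels, the 6 libraries of a genotype are clones under both treatments and not 6 independent ones.

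UNC0638 changed no imprinted gene past the threshold in WT cells, where limma called 0 of 42, against 0.0% of all 17258 genes. At an unadjusted p under 0.05 limma gave 5 of the 42 and 1504 of all genes (8.71%), edgeR called 0 genes and DESeq2 14, none of them imprinted. In Dppa4 KO cells limma called 0 of 42, against 0.464% of all genes, with 6 of the 42 at an unadjusted p under 0.05, against 15.4% of all genes. The genes higher with dTAG at 7 d had UNC0638 differences in WT of 0.45 for Igf2, 0.61 for Sfmbt2, 0.15 for Mest, 0.09 for Peg10 and 0.41 for Zdbf2, none of them called. The inhibitor was given for 48 h and the degron ligand for 7 d, so these values stand side by side without a comparison. The test of whether the UNC0638 effect differed between genotypes also called 0 of 42 imprinted genes and gave an unadjusted p under 0.05 for 7 of them, against 6.23% of all genes. For 2 of the 42, Plagl1 and Nespas, the UNC0638 libraries lay above the DMSO libraries in WT and below them in KO without overlap, against 0.516% of all genes.

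For the remaining genes described above, the Dppa4 experiment gave the following ranges over the 6 WT and the 6 KO libraries, and none of these genes was called. In the H19 and Kcnq1ot1 clusters the ranges of the genotypes overlapped for all 5 genes. H19 ranged from 66.04 to 270.1 in WT and from 95.2 to 248 in KO. Kcnq1ot1 ranged from 3.49 to 54.6 in WT and from 0 to 41.4 in KO. Cdkn1c ranged from 369 to 1728 in WT and from 372 to 1528 in KO. For the trophoblast factor and the solute carrier they were low. Ascl2 ranged from 35.7 to 95.01 in WT and from 15.1 to 67.2 in KO. Slc22a18 ranged from 0 to 12.3 in WT and from 0 to 18.6 in KO. In the Snrpn cluster 3 genes overlapped between genotypes. Snrpn ranged from 7.19 to 18.4 in WT and from 4.08 to 26.7 in KO. Ndn ranged from 369.8 to 603 in WT and from 248 to 385 in KO. Magel2 ranged from 2.33 to 26.3 in WT and from 4.30 to 12.2 in KO. Mkrn3 did not overlap, at 104 to 175 in WT and 182 to 248 in KO, and its difference was 0.56 in DMSO (limma adjusted p = 0.144) and 0.68 in UNC0638 (limma adjusted p = 0.0971), past the threshold in neither.

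In the Dlk1-Meg3 cluster the noncoding RNAs and Rtl1 overlapped between genotypes. Meg3 ranged from 696 to 981 in WT and from 368 to 1111 in KO. Mirg ranged from 66.9 to 125 in WT and from 65.00 to 139 in KO. Rtl1 ranged from 17.5 to 48.95 in WT and from 11.8 to 23.6 in KO. The retrogenes and the noncoding RNA Peg13 overlapped as well. Zrsr1 ranged from 215 to 298 in WT and from 267 to 521 in KO. Mcts2 ranged from 753 to 1082 in WT and from 565 to 1195 in KO. Peg13 ranged from 39.9 to 177 in WT and from 13.1 to 129 in KO. For Zim1 and Peg3 of the Peg3 cluster the KO range reached past the WT range on both sides. Zim1 ranged from 5.24 to 13.6 in WT and from 0 to 16.6 in KO. Peg3 ranged from 404 to 655 in WT and from 155 to 1042 in KO. The same was the case at the zinc finger gene Zdbf2, and Nnat and Sfmbt2 overlapped between genotypes too. Zdbf2 ranged from 205 to 758 in WT and from 149 to 1147 in KO. Nnat ranged from 20.8 to 203 in WT and from 79.6 to 214 in KO. Sfmbt2 ranged from 337 to 876 in WT and from 141 to 473 in KO. Airn, with 0 to 2.64 in WT and 0 to 1.16 in KO, was too low to be tested.

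Of the 15 genes that set, keep or erase imprints, 2 fell in Dppa4 KO under each treatment and 0 changed with UNC0638. Dnmt3b, a de novo methyltransferase gene, differed by -1.09 in DMSO (limma adjusted p = 0.0287) and -1.22 in UNC0638 (limma adjusted p = 0.0215). Dppa3 differed by -4.20 (limma adjusted p = 0.0067) and -3.30 (limma adjusted p = 0.0287). Zfp57 and Trim28 differed by -0.11 and 0.16 in DMSO, neither called.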

How the data were processed

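Poly-A RNA counts of mouse stem cells were read from the tables the authors deposited. They trimmed reads with Trim Galore 0.6.7, aligned them to mm10 with STAR 2.7.10 without splicing, writing 1 random place for reads that fit several, and counted them over genes (GENCODE vM25) and repeats with TEcounts, whose strand setting is not given in the sources used here. The time course and washout libraries were stranded and poly-A selected, the sorted cells were low-input libraries, and the Dppa4 libraries were poly-A enriched. The deposited signal is a read count divided by a DESeq2 1.34.0 size factor, and for 3 of the 4 experiments the authors' mean of each group, to which no SD belongs. Group means summed to 14402265 to 14906001 (time course), 20488479 to 21894479 (washout) and 8706492 to 11520046 (sorted cells), and their depth in reads is unknown. Tables of the authors' own comparisons (fold changes and p-values; 9 tables) and repeat tables were not used.

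The 46 genes and all lists were chosen with earlier results of these data known. Genes were named with values in every group when they passed a call or 2-fold in any comparison or lay at a control region. For group means, log2 ratios used a pseudocount of 1 and a mean of at least 10 in either group. For the Dppa4 experiment whole reads were recovered from the normalised counts (values within 0.01 of a whole number), edgeR 4.0.16 filtered low genes, and limma 3.58.1 (R 4.3.3) tested log2(value + 1) with a trend, two-sided, with Benjamini-Hochberg adjustment over 17258 genes and calls at 0.05 and 2-fold. A fold on the log2(value + pseudocount) scale understates the change of low genes. edgeR and DESeq2 1.42.0 on the recovered reads, other pseudocounts, filters, scalings, left-out libraries and a replicate block were the alternatives. Tested on simulated data, limma found 69.6% of 194 genes changed 4-fold between genotypes in DMSO, with 8 false calls. The deviations of same-numbered DMSO and UNC0638 libraries correlated at 0.246, 0.103 and 0.431 in WT, all above 0.1, and at 0.154, -0.0923 and 0.0129 in KO, where only replicate 1 was above 0.1. Annotation overlaps and promoter stretches came from GRCm38 references, with gene coordinates from their annotation and not from the deposited tables.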

Additional observations from a re-analysis of the deposited data

Results flagged for a closer look

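Plagl1 and Nespas had UNC0638 effects of opposite direction in the genotypes, without overlap between the libraries of DMSO and UNC0638 in either. Plagl1 stood at 13.96, 20.9 and 13.99 in WT DMSO and 37.9, 25.2 and 28.7 in WT UNC0638, higher in 3 of 3 libraries, and at 39.1, 29.5 and 62.7 in KO DMSO and 17.5, 22.6 and 11.4 in KO UNC0638, lower in 3 of 3. The difference between the effects was -2.16 on the log2 scale (SE 0.62, limma adjusted p = 0.775), which missed the threshold. Nespas stood at 16.3, 19.7 and 21.9 and 37.0, 30.8 and 37.5 in WT DMSO and WT UNC0638, and at 42.1, 37.7 and 37.1 and 35.9, 18.3 and 27.1 in KO DMSO and KO UNC0638. Its difference between the effects was -1.39 (SE 0.54, limma adjusted p = 0.775), which also missed the threshold. Such opposite shifts without overlap were found for 89 of 17258 genes (0.516%). Counts under 70 limit both genes, and Nespas shares with Gnas 31.4% of its exonic bases.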

How the results depend on the processing

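For the group means, no spread could be given and no test was run here, and the authors' own tests were not used. Their counts past 2-fold rest on the filter and the pseudocount where means are low. Recovery against DMSO gave 1 gene with no filter and 0 otherwise. Recovery against dTAG gave 1 instead of 2 with a pseudocount of 5 and 1 with a mean of at least 50. Sorted mESC gave 0 instead of 3 with a mean of at least 50, and sorted 2CLC gave 1 instead of 2 with a pseudocount of 5 and 1 with a mean of at least 50. In the other comparisons of means the total count stayed within 1.5 times, but the number of lower genes did not everywhere: in 2CLC against mESC in DMSO it went from 7 to 3 with a pseudocount of 5 and with a mean of at least 50, and at 7 d of dTAG from 2 to 1 with a mean of at least 50 and to 3 with no filter. For the Dppa4 experiment, KO against WT in DMSO gave 5 genes with the adjusted p alone, without the 2-fold limit. Leaving out 1 library at a time gave 0 to 4 imprinted genes for KO against WT in DMSO, 2 to 4 for KO against WT in UNC0638, 0 to 1 for UNC0638 in KO (Peg3 without KO UNC0638 replicate 1, -1.56, limma adjusted p = 0.027) and 0 to 0 for UNC0638 in WT and for the difference between the genotypes. Over 22 settings, Igf2 in UNC0638 was called in 22, Peg10 in 21, Dlk1 in DMSO in 21, Igf2 in DMSO in 20, Grb10 in UNC0638 in 19 and Dlk1 in UNC0638 in 11, and no call turned its direction. The cause of these differences was not tested. Over all genes UNC0638 in KO gave 80 calls by limma, 37 by edgeR, 285 by DESeq2, 12 with no filter and 172 with the replicate block.

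With the replicate block, the counts of imprinted genes called were 0 for UNC0638 in WT, 0 for UNC0638 in KO, 3 for KO against WT in DMSO, 6 for KO against WT in UNC0638 and 0 for the difference of effects. With a replicate block nested in genotype, chosen after seeing the data, they were 0, 0 and 0 for the UNC0638 comparisons. Leaving out KO replicate 1 in both treatments was also chosen after seeing the data. No paired analysis was possible for the other experiments because their tables hold group means.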
